A study of Mus musculus with 74 samples.

Results

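The 9 genes described here, Vwf, F2r, Thbd, Procr, F3, Tfpi, Plat, Plau and Plaur, are coagulation and fibrinolysis genes known from endothelium and its surroundings and were chosen by name and function, with earlier results of these data known. In those results, Vwf and F2r were already called different between primary tumor and lung metastasis in several models. All 9 were measured in each of 5 gene tables, which held between 17270 genes (BALB) and 19320 genes (C3Tag). RNA was sequenced from mammary primary tumors (PT) and lung metastases (Lung met) of transgenic female mice, 74 samples in all. The oncogenic driver cohort carried 1 of 3 transgenes on the FVB background, namely Her2 (neu) or Myc behind the mouse mammary tumor virus (MMTV) promoter, or the SV40 T antigen behind the C3(1) promoter (C3Tag). The PyMT-F1 cohort carried polyoma middle T antigen behind the MMTV promoter in offspring of FVB PyMT males and AKR/J, BALB or SEA/GnJ (SEAGN) females. PT and Lung met carried the same transgene within each model, and the MMTV promoter is known for activity mainly in mammary epithelium. The labels gave 6 PT and 6 Lung met samples per model, or 7 and 7 in C3Tag, and every animal contributed both tissues. PyMT animals were kept to a humane endpoint, whereas single tumors of the Her2, Myc and C3Tag animals were surgically removed before the animals were aged further. All PTs of an animal were combined, and whole metastases were used for RNA.

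For each gene, the 5 tables gave the authors' mean of normalized counts in PT and in Lung met, without a value for any single sample. A ratio below is the Lung met mean over the PT mean, and a log2 ratio above 0 means a higher mean in Lung met. Because the spread between animals is unknown, no difference was tested, and whether a ratio exceeds the variation between animals cannot be told from these means. A difference of at least 2-fold is used only as a descriptive threshold. Each table was normalized separately, so levels were not set against each other between tables. The models are called Her2, C3Tag, BALB, SEAGN and AKR-named after their tables. Which libraries entered the means of a PyMT-F1 table was not settled. The genotype label of 23 of the 36 PyMT-F1 samples names another strain than the sample title, and the strain behind the AKR-named table is in doubt, since for the genes checked the study lists its comparison under the C57BL/6J cross and not the AKR/J cross. AKR-named values may therefore belong to another F1 strain than the name says. Myc is not described, as no group mean was analysed for it.

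Coagulation begins when tissue factor, the product of F3, binds factor VII and starts a cascade that ends in thrombin and fibrin. Endothelium holds this in check with tissue factor pathway inhibitor (Tfpi) and with thrombomodulin (Thbd), which captures thrombin and, together with the endothelial protein C receptor (Procr), turns it toward activation of the anticoagulant protein C. Von Willebrand factor (Vwf), stored in the Weibel-Palade bodies of endothelial cells, tethers platelets, and thrombin signals to cells through protease-activated receptor PAR1 (F2r). Fibrin is dissolved by plasmin, which tissue-type (Plat) and urokinase-type (Plau) plasminogen activators release from plasminogen, the latter at its receptor Plaur. The lung is a densely vascularized organ, and its endothelium is known for high thrombomodulin. F3, Plau, Plaur, Plat and F2r are also made by epithelial, stromal or myeloid cells.

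The labelled tissues were checked against defining markers. Epcam, an epithelial adhesion molecule carried by mammary tumor cells, had a PT mean of 49467 normalized counts and a Lung met mean of 46274 in Her2, and its log2 ratio over the 5 tables ran from -0.68 (C3Tag) to 0.05 (AKR-named). Markers of alveolar type 1 cells, the flat gas-exchange cells of the lung, had a median log2 ratio between 1.78 (BALB) and 3.24 (AKR-named). Of 9 alveolar type 2 markers, 6 were measured in each table, among them the surfactant protein gene Sftpd but not Sftpc, Sftpb or Sftpa1. The median over these 6 lay between 1.24 (Her2) and 6.15 (C3Tag). Both medians were above 0 in every table, and the part of adjacent lung tissue in the member values was not tested. Among 18 pan-endothelial markers, all of which were measured in each table, 4 were at least 2-fold higher in Lung met in Her2, 14 in C3Tag, 5 in BALB, 5 in SEAGN and 17 in AKR-named, and 0 were 2-fold lower. Their median log2 ratio was 0.73 in Her2, 1.37 in C3Tag, 0.62 in BALB, 0.59 in SEAGN and 1.71 in AKR-named. The summed pan-endothelial level in PT and Lung met was 6203 and 10298 in Her2, 7156 and 15504 in C3Tag, 1923 and 3152 in BALB, 2128 and 3683 in SEAGN, and 4555 and 17043 in AKR-named, and no gene of any table had a mean of 0. In bulk tissue, fewer cells of a type and less RNA per cell cannot be told apart.

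Of the 9 genes, Vwf, Thbd and F2r had the highest median log2 ratios over the tables, whereas F3, Tfpi and Plau lay closest to equal levels in both tissues. Because Vwf and F2r were known beforehand to differ in several models, the counts below describe the list and their contrast with all genes was partly set by the choice. In Her2, 2 of the 9 were at least 2-fold higher in Lung met, against 2.38% of all genes of that table, and 0 were 2-fold lower, against 1.43%. In C3Tag, 5 were 2-fold higher, against 7.42% of all genes, and 0 lower, against 1.7%. BALB had 3 higher, against 2.26%, and 0 lower, against 2.4%. SEAGN likewise had 3 higher, against 2.86%, and 0 lower, against 3.22%. In AKR-named, 6 were 2-fold higher, against 7.31%, and 0 lower, against 1.73%. The median log2 ratio of the 9 was 0.65 in Her2, 1.62 in C3Tag, 0.65 in BALB, 0.43 in SEAGN and 1.46 in AKR-named, while the median over all genes stayed between -0.0013 and 0.030. All 9 had a mean in every table, so none was lost to a filter on low values.

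**Figure D1:**
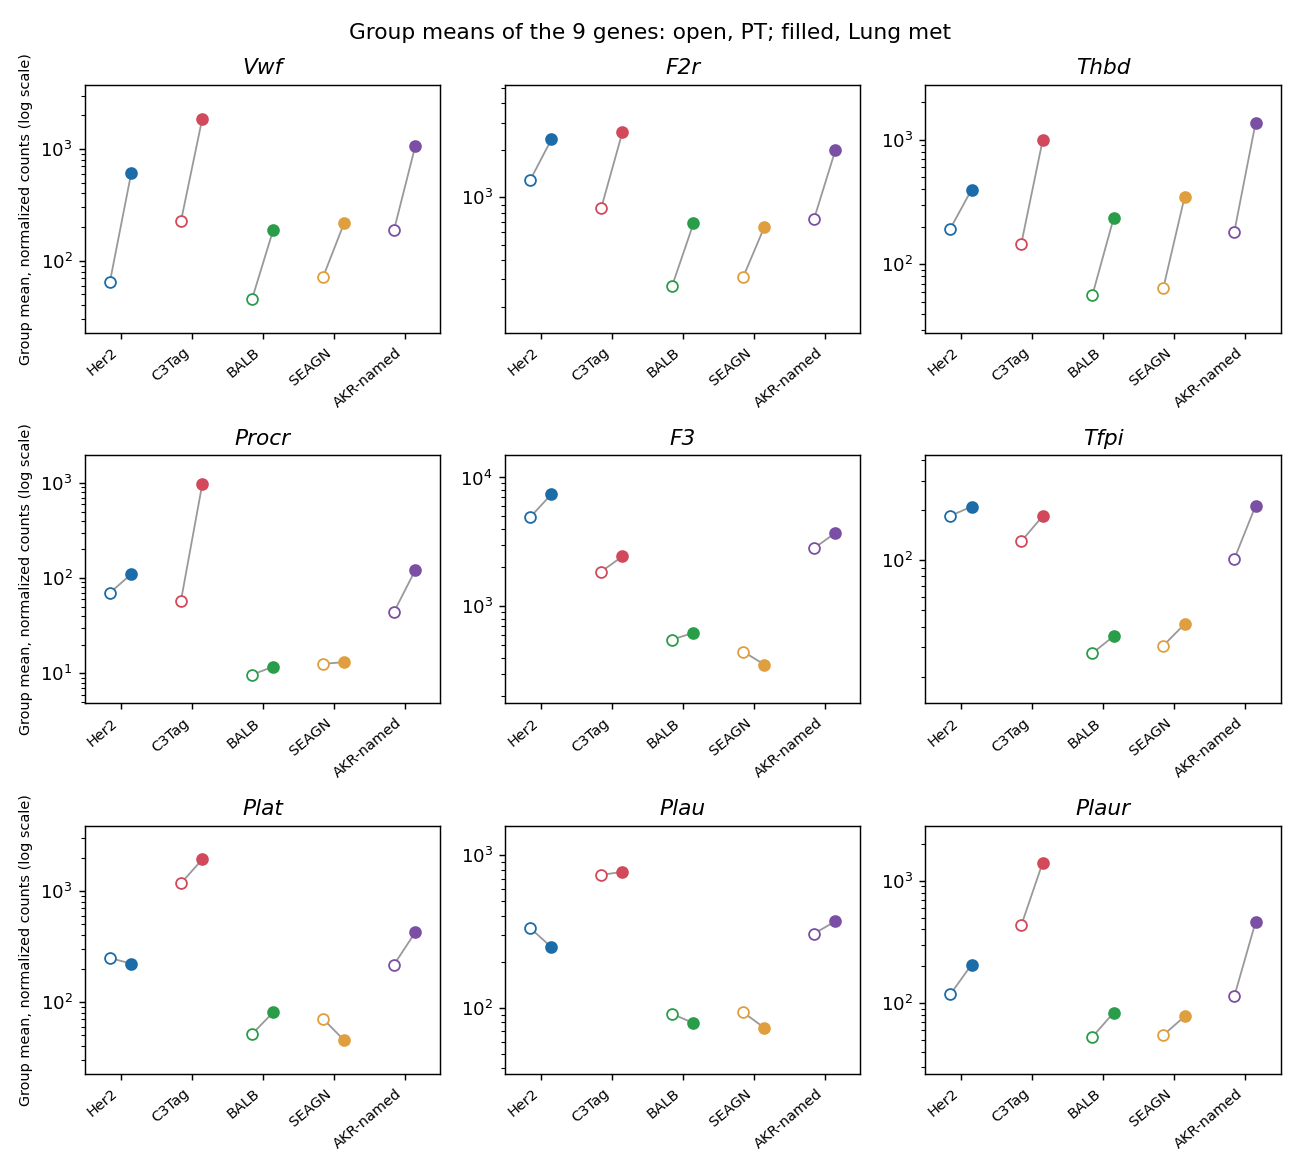
Group means of the 9 genes in normalized counts (vertical axes, logarithmic, each panel on its own scale) for PT (open circles) and Lung met (filled circles) in the 5 tables (horizontal axes); lines join the tissues of 1 table, and no error is shown because no single-sample value was analysed. Vwf, F2r and Thbd had a higher Lung met mean in 5 of 5 tables, and Plau in 2.

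Vwf had the largest ratio of the 9 in Her2 and BALB. Its mean was 65.2 in PT and 611 in Lung met in Her2, and 226 and 1867 in C3Tag. In the PyMT-F1 tables the means were 45.3 and 190 in BALB, 71.2 and 219 in SEAGN, and 189 and 1064 in AKR-named. The Lung met mean was thus the higher in every table, by 9.36-fold in Her2, 8.25-fold in C3Tag, 4.19-fold in BALB, 3.08-fold in SEAGN and 5.64-fold in AKR-named. Within each table, between 98.8% (AKR-named) and 99.8% (Her2) of all genes had a lower ratio. Vwf (chromosome 6, 125546774 to 125686679, plus strand, GRCm38) spans the longest locus of the 9.

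Platelets carry VWF protein, and megakaryocytes transcribe Vwf, so platelet and megakaryocyte markers are given beside it. Between 2 and 4 of the 8 markers on that list were measured in a table. Their median log2 ratio was -0.19 in Her2, 1.15 in C3Tag, -0.26 in BALB, -0.40 in SEAGN and 0.72 in AKR-named, and rested on 4, 4, 2, 3 and 4 markers in that order. Their summed level in PT and Lung met was 222 and 174 in Her2, 273 and 541 in C3Tag, 40.1 and 33.0 in BALB, 57.9 and 45.6 in SEAGN, and 149 and 327 in AKR-named. Single markers differed from these medians, as Ppbp, a platelet chemokine, was 2.04-fold higher in Lung met in Her2, 8.22-fold in C3Tag and 16.2-fold in AKR-named. The other measured markers were lower in some tables. Pf4 had log2 ratios of -1.11 to 2.22 in 4 tables, and, over 5 tables, Itga2b had -0.40 to 0.60 and Gp1ba -0.47 to 0.08. The part of platelets and megakaryocytes in the Vwf values was not tested.

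F2r, the thrombin receptor PAR1, was at least 2-fold higher in Lung met in 4 of 5 tables and 1.82-fold higher in Her2. The PT and Lung met means were 1289 and 2352 in Her2, 852 and 2620 in C3Tag, 272 and 682 in BALB, 310 and 650 in SEAGN, and 733 and 2016 in AKR-named. The log2 ratios, 0.87, 1.62, 1.32, 1.07 and 1.46 in the same order, spanned 0.75 and were less spread than those of Vwf, which spanned 1.60. F2r lies at chromosome 13, 95601803 to 95618487, on the minus strand.

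The upstream sequences of the members were searched for 6 short motifs, because several of the 9 differed in the same direction. RefSeq promoter windows were at hand for F2r, Procr, F3, Plaur and, with 2 start sites, Tfpi, and the 250 bases before each start were read on both strands. The motif TGACTCA, known to be bound by AP-1 factors, was present in the windows of 4 of the 5 genes, F2r, Procr, F3 and Plaur, and in 4.46% of 32851 promoter windows of the same length. Each is given 5′ to 3′ on the gene's strand, with the match or its reverse complement in capitals, to show the shared letters and their surroundings.
F2r, GRCm38.p6 chr13:95618644-95618690, minus strand: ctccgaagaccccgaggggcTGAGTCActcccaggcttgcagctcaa
Procr, GRCm38.p6 chr2:155751043-155751089, plus strand: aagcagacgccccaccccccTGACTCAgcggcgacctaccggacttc
F3, GRCm38.p6 chr3:121723382-121723428, plus strand: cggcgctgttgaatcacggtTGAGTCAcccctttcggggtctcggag
Plaur, GRCm38.p6 chr7:24462394-24462440, plus strand: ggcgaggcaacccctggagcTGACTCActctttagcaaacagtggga
The first base of the match lay 204 bases before the start in F2r, 154 in Procr, 135 in F3 and 69 in Plaur, and the F3 match overlaps a CACCC match. The other motifs were CACCC, known for KLF factors, in 4 of the 5 genes and 52% of all windows, GGGCGG, known for SP factors, in 4 genes and 32.7%, and AGGAAG, known for ETS factors, in 2 genes and 29.5%. AGATAA, known for GATA factors, was in 1 gene and 9.99% of windows, and TATAAA, the TATA box, in 1 gene and 12.4%. A match describes letters in a window, and binding was not measured in this study. The genes that share TGACTCA did not share one size of ratio, since F2r was at least 2-fold higher in 4 tables, Procr and Plaur in 2 and F3 in 0.

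Thbd, which encodes thrombomodulin, was at least 2-fold higher in Lung met in 5 of 5 tables. Its means in PT and Lung met were 193.0 and 397.3 in Her2, 147 and 983 in C3Tag, 56.5 and 234 in BALB, 64.7 and 348 in SEAGN, and 183 and 1369 in AKR-named. The ratio was smallest in Her2, at 2.06, and reached 6.70 in C3Tag, 4.15 in BALB, 5.38 in SEAGN and 7.48 in AKR-named. Thbd thus had the largest ratio of the 9 in SEAGN and AKR-named, while Vwf exceeded it by 2.18 on the log2 scale in Her2. Thbd lies at chromosome 2, 148404466 to 148408188, on the minus strand.

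Procr, the receptor that presents protein C to the thrombin-thrombomodulin complex, was the least even of the 9. Its means in PT and Lung met were 58.1 and 969 in C3Tag, 44.2 and 122 in AKR-named and 70.1 and 110 in Her2. In BALB they were 9.68 and 11.8, and in SEAGN 12.6 and 13.1. The C3Tag ratio of 16.7 was the largest of all 45 member values, whereas the SEAGN ratio was 1.04, and the log2 ratios spanned 4.00. Whether single C3Tag animals set this mean cannot be told apart from a difference shared by the group. With both partners of the protein C pathway side by side, the Thbd log2 ratio exceeded that of Procr by 0.39 in Her2, 1.77 in BALB, 2.37 in SEAGN and 1.44 in AKR-named, and lay 1.32 below it in C3Tag, where the difference was -1.32. Procr lies at chromosome 2, 155751117 to 155755471, on the plus strand.

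**Figure D2:**
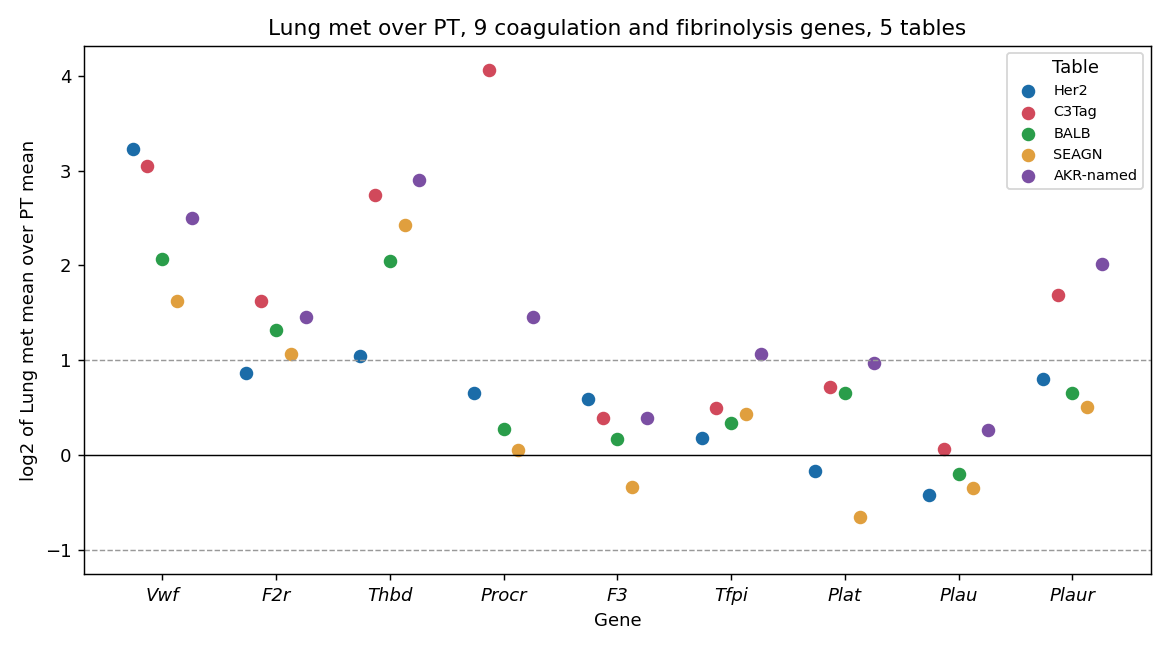
The log2 of the Lung met mean over the PT mean (vertical axis) for each of the 9 genes (horizontal axis) in the 5 tables (colored points); dashed lines mark 2-fold. All 5 points of Vwf and Thbd lie above the upper dashed line, Procr runs from 0.06 to 4.06, and no point lies below the lower one.

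F3, tissue factor, which starts the cascade, differed less than 2-fold in all 5 tables. Its means in PT and Lung met were 4912 and 7413 in Her2, 1858 and 2439 in C3Tag, 551 and 622 in BALB, 445 and 352 in SEAGN, and 2829 and 3712 in AKR-named. The Lung met mean was the higher in 4 tables, by at most 1.51-fold (Her2), and the lower in SEAGN, with a ratio of 0.792. F3 lies at chromosome 3, 121723537 to 121735048, on the plus strand. The Thbd log2 ratio exceeded that of F3 in 5 of 5 tables, by 0.45 in Her2, 2.35 in C3Tag, 1.88 in BALB, 2.76 in SEAGN and 2.51 in AKR-named.

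Tfpi, the inhibitor of the tissue factor and factor VII complex, had a higher Lung met mean in 5 of 5 tables and reached 2-fold only in AKR-named. The means in PT and Lung met were 185 and 210 in Her2, 130 and 184 in C3Tag, 27.7 and 35.0 in BALB, 30.8 and 41.4 in SEAGN, and 102 and 213 in AKR-named. The ratios were 1.14, 1.41, 1.27, 1.35 and 2.09 in that order. Set against its target F3, the Tfpi log2 ratio was higher in 4 tables, by 0.11 to 0.77, and lower in Her2, where the difference was -0.41. Tfpi lies at chromosome 2, 84432855 to 84476775, on the minus strand.

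Among the genes of fibrinolysis, both plasminogen activators stayed within 2-fold, and the receptor Plaur had the larger ratios. Plat, the tissue-type activator (chromosome 8, 22757727 to 22782844, plus strand), had means in PT and Lung met of 249 and 222 in Her2, 1176 and 1933 in C3Tag, 51.4 and 80.9 in BALB, 70.7 and 45.0 in SEAGN, and 217 and 426 in AKR-named. Its direction was mixed, with ratios of 1.57 to 1.96 in C3Tag, BALB and AKR-named, 0.892 in Her2 and 0.637 in SEAGN, the lowest member ratio of all. Plau, the urokinase-type activator (chromosome 14, 20836660 to 20843385, plus strand), had means of 332 and 249 in Her2, 741 and 775 in C3Tag, 91.1 and 79.2 in BALB, 93.3 and 73.7 in SEAGN, and 306 and 368 in AKR-named. The Plau ratio lay between 0.749 (Her2) and 1.20 (AKR-named) and was the lowest or next to lowest of the 9 in every table.

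Plaur, the urokinase receptor (chromosome 7, 24462484 to 24475968, plus strand), had means in PT and Lung met of 118 and 207 in Her2, 433 and 1400 in C3Tag, 52.9 and 83.7 in BALB, 54.9 and 78.0 in SEAGN, and 114 and 462 in AKR-named. The Lung met mean was the higher in every table, by 3.23-fold in C3Tag and 4.05-fold in AKR-named and by 1.42-fold to 1.75-fold in the other three. The receptor and its ligand thus differed in size of ratio, and the Plaur log2 ratio exceeded that of Plau by 1.22 in Her2, 1.63 in C3Tag, 0.86 in BALB, 0.85 in SEAGN and 1.75 in AKR-named. Plaur is also a myeloid gene. Of 7 neutrophil markers, 5 or 6 were measured in a table. Against 2.26% (BALB) to 7.42% (C3Tag) of all genes, 4 to 6 of these markers were at least 2-fold higher in Lung met. Their median log2 ratio was 2.46 in Her2, 3.53 in C3Tag, 1.42 in BALB, 2.63 in SEAGN and 4.04 in AKR-named, and their summed level in PT and Lung met was 145 and 420 in Her2, 530 and 4880 in C3Tag, 249 and 685 in BALB, 254 and 847 in SEAGN, and 692 and 8948 in AKR-named. Of 8 macrophage markers, 4 to 7 were measured in a table, with a median between -0.09 (BALB) and 0.93 (AKR-named). Single markers differed from it. Siglecf had log2 ratios of 2.67 to 3.77 and Itgax 1.09 to 1.14, each in 3 tables, and Chil3 5.80 to 5.83 in 2. Measured in all 5, Adgre1 ran from -0.32 to 0.22, Csf1r from -0.40 to 0.26 and Mrc1 from -1.64 to 0.79. The part of either cell type in the Plaur values was not tested.

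Levels of different genes can be compared only per length, which was possible in the 3 tables with Ensembl gene identifiers, Her2, C3Tag and AKR-named. The group mean was divided by the kilobases of annotated exon, which may differ from the exons the authors counted. F3 had the highest value per kilobase of the 9 in both tissues of all 3 tables, and in PT it stood at 1944 in Her2, 735 in C3Tag and 1119 in AKR-named. Vwf, with 16064 bases in the union of its annotated exons, had the lowest value in PT of all 3 tables. It stood there at 4.06 in Her2, 14.1 in C3Tag and 11.7 in AKR-named. In Lung met, Vwf was 8th in Her2 and C3Tag and 7th in AKR-named. A union of exons can exceed the length of any single transcript, so the place of Vwf may depend on this divisor. In C3Tag, Thbd stood at 39.4 per kilobase in PT and 264 in Lung met, and Procr, at 28.6 and 477, was below it in PT and above it in Lung met. In Lung met, the level of F3 per kilobase stood above that of Thbd in each table, at 2934 against 107 in Her2, 965 against 264 in C3Tag and 1469 against 368 in AKR-named.

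The members were next placed beside the pan-endothelial markers, by subtracting the median log2 ratio of the 18 markers in the same table. Vwf exceeded that median in 5 of 5 tables, by 2.49 in Her2, 1.68 in C3Tag, 1.45 in BALB, 1.04 in SEAGN and 0.78 in AKR-named. Thbd did so too, by 0.31, 1.38, 1.43, 1.84 and 1.19 in the same order. F2r was above it in 4 tables, by 0.14 to 0.70, and 0.25 below it in AKR-named, where the difference was -0.25. Plaur ran from -0.08 to 0.32 around it. F3, Tfpi and Plau were below it in every table, Procr was above it in C3Tag alone and Plat, by 0.03, in BALB alone. The pan-endothelial markers themselves were spread widely, from Flt1 at 0.27 to Calcrl at 3.00 in C3Tag, and from Emcn at 0.86 to Cldn5 at 4.49 in AKR-named. In Her2 they ran from Robo4 at 0.22 to Calcrl at 1.98. The lowest marker was Emcn in BALB and SEAGN, at -0.22 and -0.33, and the highest was Calcrl, at 2.30 and 2.68. Most member values lay inside the range of their table. Of the 45 member values, 3 were above the highest marker of their table, namely Vwf in Her2 and C3Tag and Procr in C3Tag, and 9 were below the lowest, all of them values of F3, Tfpi, Plat or Plau. Lung capillary endothelial markers, of which 9 were measured, had medians of 0.54 (Her2) to 1.72 (AKR-named). Single markers of this list differed in direction. Ednrb ran from -2.15 to 0.05 over the tables, Aplnr from -0.31 to 0.90, Hpgd from -0.22 to 3.37 and Sema3c from -0.07 to 1.66. Tbx2 ran from 1.42 to 3.20. How far vessel content accounts for the member values was not tested.

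**Figure D3:**
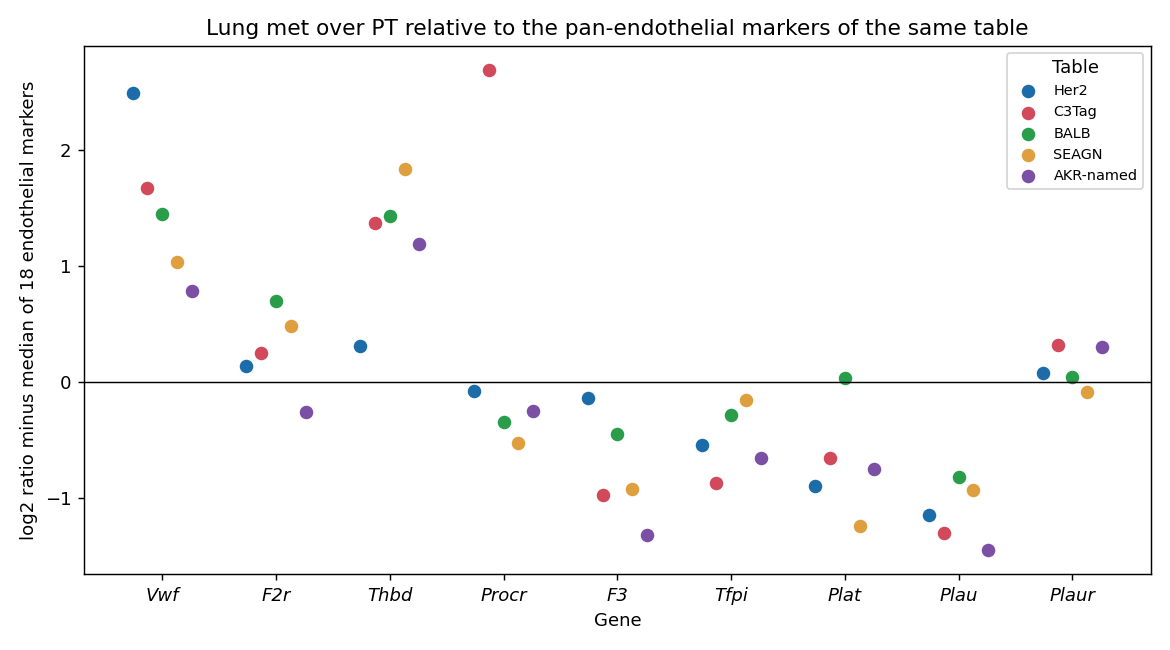
Log2 ratio of each of the 9 genes minus the median log2 ratio of 18 pan-endothelial markers in the same table (vertical axis), by gene (horizontal axis), with 1 colored point per table; the line at 0 is the endothelial median. Vwf and Thbd lie above the line in 5 tables, and F3, Tfpi and Plau below it in 5.

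Few genes were at least 2-fold higher in Lung met in every table. Of 11920 genes with a single entry in all 5 tables and a mean of at least 10 in either tissue, 68 (0.57%) met this, Vwf and Thbd included. The smallest of the 5 Vwf log2 ratios was 1.62, and 29 genes, Vwf included, had a smallest ratio at or above this. The same count was 62 for Thbd, 89 for F2r, 173 for Plaur, 441 for Tfpi and 871 for Procr. It was 8106 for F3, 9091 for Plau and 10644 for Plat, whose smallest ratios were below 0. Since Vwf and F2r were known beforehand to differ in several models, their places here are descriptive only.

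The genes whose 5 log2 ratios came closest to those of a member were sought among the same 11920 genes, by the root mean square difference over the 5 tables. For Vwf the nearest were Akap5, an alveolar type 1 marker and kinase anchor, at 0.44, Dram1, a lysosomal autophagy regulator, at 0.58, Mctp1 at 0.66, Icam1, an adhesion molecule of activated endothelium, at 0.68, and S100a8, a neutrophil protein, at 0.71. For F2r they were Heyl, a Notch target gene, at 0.20, Itgb2, a leukocyte integrin, at 0.24, Adgrl4, an endothelial adhesion receptor, at 0.24, Fgd5, an endothelial exchange factor, at 0.24, and Ptgs1, a cyclooxygenase, at 0.25. For Thbd they were Clec9a, a dendritic cell receptor, at 0.15, Tbx2, a transcription factor of lung mesenchyme and capillaries, at 0.29, Nkd1, a Wnt inhibitor, at 0.37, Prrg3 at 0.40 and Lyz2, a lysozyme of myeloid and alveolar type 2 cells, at 0.42. Clec9a, for example, had log2 ratios of 1.00 in Her2, 2.52 in C3Tag, 2.30 in BALB, 2.45 in SEAGN and 2.94 in AKR-named, beside 1.04, 2.74, 2.05, 2.43 and 2.90 for Thbd. The nearest genes thus include markers of endothelium, lung epithelium and myeloid cells, and rest on 5 points each.

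The other genes of coagulation and fibrinolysis were taken from 5 lists with 66 entries, of which 37 had a group mean in all 5 tables and 17 in none. Genes with no mean included F2, Fga and Fgb (prothrombin and fibrinogen chains), Proc (protein C) and Plg (plasminogen), which are known as products of the liver. Only F7 and F13a1 met the rule of at least 2-fold in the same direction in 4 tables. F7, factor VII, the partner of tissue factor, was higher in Lung met in all 4 tables in which it was measured. Its means in PT and Lung met were 4.56 and 52.0 in Her2, 9.33 and 257 in C3Tag, 2.00 and 29.4 in SEAGN, and 18.0 and 220 in AKR-named, with log2 ratios of 3.51 to 4.78. F10, factor X, the substrate of that complex, had log2 ratios of 3.08 to 3.34 in the 3 tables in which it was measured. It was named after its values were seen. Its means in PT and Lung met were 22.1 and 224 in C3Tag, 2.50 and 23.4 in SEAGN, and 17.6 and 149 in AKR-named. The lowest PT mean of any gene was 1.04 in SEAGN and 0.754 in Her2, so the F7 and F10 ratios there rest on low PT means. F13a1, the fibrin cross-linking subunit of factor XIII, which macrophages and platelets carry, was 2-fold lower in 4 tables, with means in PT and Lung met of 988 and 338 in Her2, 110 and 34.5 in BALB, 205 and 32.3 in SEAGN, and 360 and 125 in AKR-named. In C3Tag it was 1375 and 1942.

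By list, the procoagulant factors were grouped with the enzymes Ggcx, Vkorc1 and P4hb. In C3Tag, 5 of 9 measured genes were at least 2-fold higher, against 7.42% of all genes. The count was 3 of 10 in AKR-named, against 7.31%, and 2 of 7 in Her2, against 2.38%. It was 2 of 8 in SEAGN, against 2.86%, and 0 of 7 in BALB, against 2.26%. At most 2 were lower in a table (BALB, against 2.4%). The medians ran from -0.21 (BALB) to 1.13 (C3Tag), the latter being the Ggcx value. The list of other anticoagulant proteins had 0 or 1 of 6 or 7 measured genes higher, against 2.26% to 7.42% of all genes. It had 0 lower, against 1.43% to 3.22%, and medians from -0.03 (Her2) to 0.36 (C3Tag). Pros1 (protein S), the cofactor of activated protein C, had log2 ratios of -0.10 to 0.90, beside 1.04 to 2.90 for Thbd. Entpd1 (CD39), an enzyme that degrades ADP, had -0.03 to 1.28 and Tfpi2 -0.69 to 0.87. Gas6, which was counted in this list without being known as an anticoagulant, had -0.46 to 0.43. Among the other protease-activated receptors, with G proteins and arrestins, 0 genes were 2-fold higher in any table, against 2.26% to 7.42% of all genes. At most 1 was lower in a table (BALB, against 2.4%). The medians of this list lay between -0.02 and 0.21. Of these receptors, F2rl1 (PAR2) had log2 ratios of -0.79 to 0.44, F2rl2 (PAR3) -1.01 to 0.47 and F2rl3 (PAR4) -0.75 to -0.06, all of them below the lowest F2r value of 0.87.

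The fibrinolysis list had 0 or 1 gene higher, against 2.26% to 7.42% of all genes, and 0 lower, against 1.43% to 3.22%. Its medians were 0.02 (SEAGN) to 0.50 (C3Tag). Within it, Serpine2 (protease nexin), an inhibitor of plasminogen activators, had log2 ratios of -0.03 to 0.91, and S100a10, a plasminogen receptor, -0.02 to 0.96. Lower values were those of Mrc2, at -0.90 to 0.33, and Lrp1, at -0.41 to 0.92. Hgfac, a serine protease measured in C3Tag alone, was the 1 gene higher, at 4.16. Among the von Willebrand factor partners and Weibel-Palade body genes, 5 of 13 measured genes were 2-fold higher in C3Tag, against 7.42% of all genes. The count was 3 of 12 in AKR-named, against 7.31%, and 0 in the other tables, against 2.26% to 2.86%. At most 2 were lower in a table (SEAGN, against 3.22%). The list medians were -0.53 (BALB) to 0.43 (C3Tag), each below the Vwf value of the same table. The platelet receptor for VWF includes Gp1bb, measured in C3Tag alone, where it was highest of the list at 2.62, and Gp5, at 0.40 to 1.52 in the 4 tables in which it was measured. Its chain Gp1ba ranged from -0.47 to 0.08. Selp (P-selectin), which is stored with Vwf in these bodies, had log2 ratios of 0.63 in Her2, 1.85 in C3Tag, -0.67 in BALB, -1.55 in SEAGN and -0.15 in AKR-named. Angpt2, another stored protein, ranged from -0.84 to 1.03 and Esm1 from -1.25 to 0.88. Mmrn1, a multimerin of platelets and endothelium measured in 4 tables, ranged from -0.59 to 2.08.

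**Figure D4:**
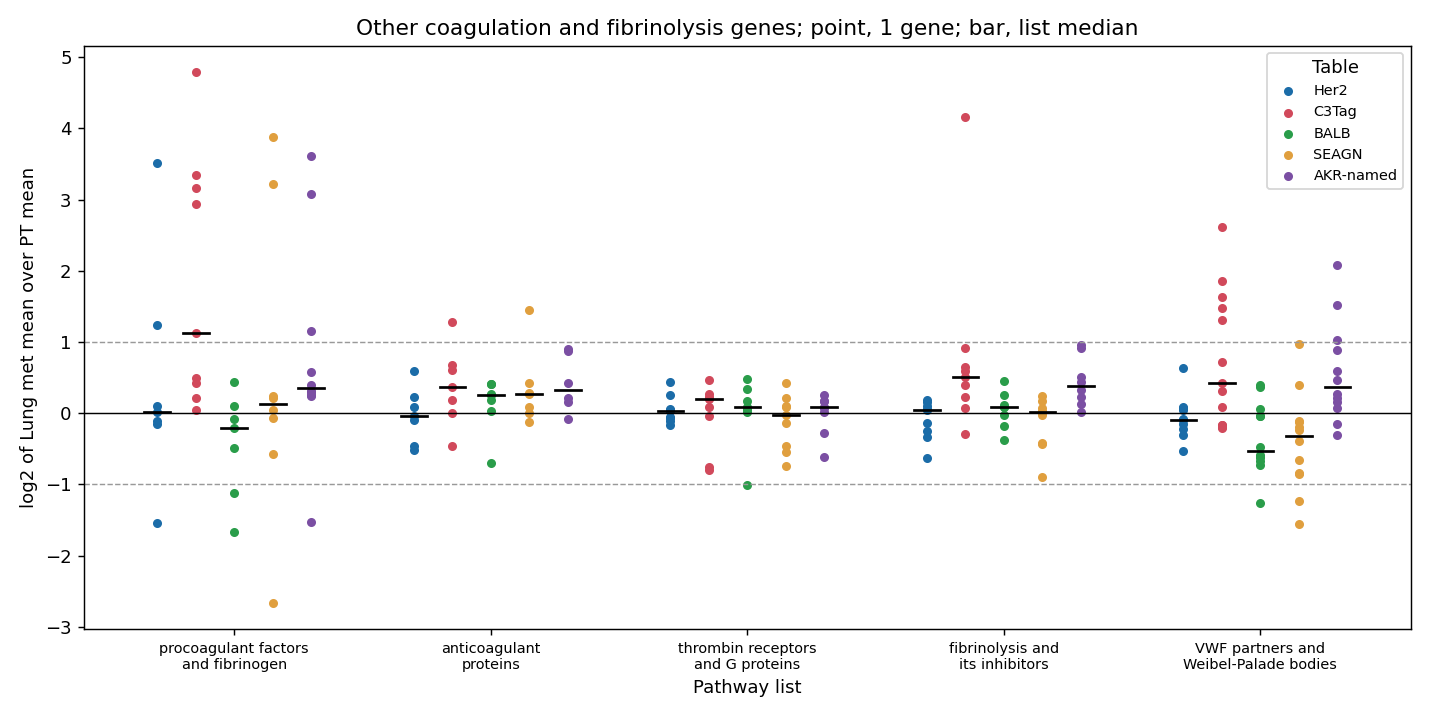
Log2 of the Lung met mean over the PT mean (vertical axis) for the genes of 5 pathway lists without the 9 members (horizontal axis), 1 point per measured gene and colored by table, with short bars at list medians and dashed lines at 2-fold. List medians lay between -0.53 and 1.13, and the highest points among the procoagulant factors were F7, at up to 4.78.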

How the data were processed

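Reads were aligned, counted and normalized in Partek Flow by the authors, with a normalization not given in the sources used here. The driver models were then analysed by the authors with Gene Specific Analysis and the PyMT-F1 models with DESeq2. The methods name mm9 and mm10, and the submitters' processing notes name mm39 and STAR 2.7.8a. The deposited group means, treated as a signal, are least-squares means of normalized counts. The other deposited columns hold the authors' p-values, FDR, ratios and fold changes and were not used, nor was the Myc table, which holds p-values and FDR only. Library depth is unknown.

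The log2 ratio of both means was computed per table with pandas 2.3.3. The code was run on simulated means with known ratios and without noise, which bears on the code and not on the data. The 9 genes and all lists were chosen with earlier results of these data known. Named genes are the 9, list genes at least 2-fold different in the same direction in 4 tables, the 5 nearest patterns of Vwf, F2r and Thbd, and list extremes. Other list genes serve to describe their list and were named after their values were seen. Coordinates and exon lengths are from GENCODE M21 (GRCm38), promoter windows from RefSeq (GRCm38.p6). BALB and SEAGN identifiers follow a BALB/cJ annotation, so those tables were joined to the others by symbol. The labels write BALB/NJ and the methods BALB/cJ. The labels name a ribosomal depletion kit and the methods mRNA libraries. The values of 1 list gene are not reported here.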

Additional observations from a re-analysis of the deposited data

How the results depend on the processing

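A pseudocount of 1 moved the 45 member log2 ratios by at most 0.024 and turned 0 of them. Centring on the median of all genes moves the genes of a table alike, here by at most 0.030, and a minimum mean of 10 removed 0 members and cannot alter a ratio, so neither bears on stability. At 1.5-fold in place of 2-fold, the members higher in Lung met were 6 in Her2 (5.42% of all genes), 6 in C3Tag (14%), 5 in BALB (6.2%), 3 in SEAGN (7.11%) and 7 in AKR-named (13.6%), and 1 was lower in SEAGN (8.32%). No paired analysis was possible because the tables hold group means only, although PT and Lung met came from the same animals. For the same reason no sample could be left out, and the weight of any single animal in a mean is unknown.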

Other observations

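Other cell type lists gave the following median log2 ratios of Lung met over PT, as ranges over the 5 tables. Fibroblast markers ran from -2.31 (SEAGN) to -0.34 (C3Tag), with 3 to 8 of 10 at least 2-fold lower, against 1.43% to 3.22% of all genes. Of these 10 markers, 0 were 2-fold higher, against 2.26% to 7.42%. Among them Col1a1, a collagen chain, had log2 ratios of -2.81 to -0.62, whereas Pdgfra, a growth factor receptor, had 0.44 to 0.94. Smooth muscle and pericyte markers ran from -0.31 to 0.45, luminal mammary epithelial markers from -0.19 to 0.23 and myoepithelial markers from -1.09 (C3Tag) to 1.12 (Her2). Erythroid markers, of which 1 to 5 were measured in a table, ran from -0.49 (BALB) to 2.20 (C3Tag), and club and ciliated airway markers, of which 1 or 2 were measured, from 0.64 (BALB) to 2.84 (Her2).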
